A study of Homo sapiens with 24 samples.

Results

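Integrins and laminins are the cell surface receptors and the matrix proteins that tie a stem cell to its basement membrane. The genes described here are the protein-coding rows of the gene table whose symbols name an integrin alpha chain (ITGA), an integrin beta chain (ITGB) or a laminin chain (LAMA, LAMB or LAMC). The rule found 38 genes among 28301 features, of which 16867 are protein-coding Ensembl genes. They comprise 18 integrin alpha, 8 integrin beta and 12 laminin genes, the last made up of 5 alpha, 4 beta and 3 gamma chains. No expression value was used to choose them.

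The study read poly(A) RNA of H9, a line of pluripotent cells established from a human embryo, in 24 libraries that form 8 groups of 3. Engineered cells carried Cry2-LRP6c-2A-mCherry, a fusion of Cry2, a plant protein that clusters under blue light, with LRP6c, by its name a part of the Wnt co-receptor LRP6, and the gene PuroR. Wild-type cells are listed with eGFP and NeoR in place of the fusion. In monoculture the groups were engineered cells in light (Cry2 light), engineered cells in the dark (Cry2 dark), wild-type cells in light (wt light) and wild-type cells in the dark (wt dark). Both cell kinds were also grown mixed in equal parts and separated afterwards by sorting on fluorescence, which gave engineered cells from lit co-cultures (mCh light), engineered cells from dark co-cultures (mCh dark), wild-type cells from lit co-cultures (GFP light) and wild-type cells from dark co-cultures (GFP dark). All cells were in E8 medium, light was 0.8 µW/mm2 for 48 h, and each replicate pooled 2 to 3 wells. The labels do not say whether the engineered line is 1 clone. For the monocultures the genotype field of the labels contradicts the titles. The titles were used, because the authors' sample table and the reads of the fusion go with them.

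An integrin is a pair of 1 alpha and 1 beta chain, and the pair sets the ligand. Chains alpha-3, alpha-6 and alpha-7 with beta-1, and alpha-6 with beta-4, bind laminin. Alpha-5 with beta-1 is the fibronectin receptor, alpha-V pairs bind vitronectin and other ligands with the RGD motif, alpha-1 and alpha-2 with beta-1 bind collagen, and beta-2 is known as the partner of leukocyte alpha chains. A laminin is a trimer of 1 alpha, 1 beta and 1 gamma chain. The trimers with LAMA1 or LAMA5, LAMB1 or LAMB2, and LAMC1 are the best known laminins of the early embryo, and human pluripotent stem cells make and attach to the LAMA5 form, mostly through ITGA6 with ITGB1. Primitive streak cells, which leave the epiblast under Wnt signals, are known to change their adhesion receptors and to break the underlying basement membrane.

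Values are normalised read counts, that is, reads of a gene divided by 1 factor per library. Libraries held 28211236 to 56620471 assigned reads, more in the 6 light monocultures (at least 45748680) than in the 6 dark monocultures (at most 34278319). The fusion lay between 34166 and 61394 in engineered libraries and between 219 and 427 in wild-type libraries. TBXT, the streak transcription factor, averaged 28324 in Cry2 light against 5.70 in Cry2 dark and 27766 in mCh light against 4.91 in mCh dark. All 7 streak and mesoderm markers were called higher in both lit engineered groups. MSGN1, MESP1 and HAND1 averaged under 10 in every group other than Cry2 light and mCh light. These markers thus passed the filter given below mainly through the lit engineered groups, so their calls are no support. The same holds for EOMES in monoculture. Of 7 pluripotency markers 6 were lower in each lit engineered group. Among them SOX2 was at 38.6 in Cry2 light against 9124 in Cry2 dark. Likewise POU5F1 was at 22407 in Cry2 light against 91486 in Cry2 dark. SALL4 was higher, at 13404 in Cry2 light against 8563 in Cry2 dark. Of the endoderm markers, GATA6 averaged 9814 in Cry2 light against 2.42 in Cry2 dark and CER1 averaged 2388 in Cry2 light against 76.6 in Cry2 dark, while SOX17 and FOXA2 stayed at or below 2.06 in Cry2 light. In such bulk libraries, fewer cells of a type and less RNA per cell cannot be told apart. The part of this change of cell state in the results below was not tested. Among monocultures, wt dark 1 stood apart by a GC content of 33.73% and Cry2 dark 3 by an RNA integrity number of 7.6. Of the wild-type libraries in light, wt light 2 stood apart, with a chi-square per degree of freedom of 51.65 and 42.58 against the other replicates, which differed from each other by 5.395. In co-culture, mCh light a was the library furthest from its group. The labels do not say that replicates came from separate passages, so p-values measure the spread between these pools of wells.

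Promoter sequences are shown for receptor and matrix chain genes described below: ITGA5 and LAMB1, which were higher in engineered cells under light, and ITGA6 and LAMA5, which were lower. LAMB1 and LAMA5 are different chains of a trimer, not alternatives to each other. No window was at hand for LAMA1, the chain set against LAMA5 below. Each window covers 250 bases before to 50 bases after the gene's start, from RefSeq on GRCh38.p14, and is written 5′ to 3′ on the gene's own strand. ITGA5 lies on the minus strand with its window at chr12:54419217-54419516, LAMB1 on the minus strand at chr7:108003112-108003411, ITGA6 on the plus strand at chr2:172427086-172427385 and LAMA5 on the minus strand at chr20:62367263-62367562. ITGA6 has 2 such windows, and the one nearer the annotated gene start is shown. Capitals mark, on either strand, the TCF/LEF word CTTTGAT, the Snail-type E-box CAGGTG, the GC box GGGCGG and the T-box word AGGTGT.
ITGA5: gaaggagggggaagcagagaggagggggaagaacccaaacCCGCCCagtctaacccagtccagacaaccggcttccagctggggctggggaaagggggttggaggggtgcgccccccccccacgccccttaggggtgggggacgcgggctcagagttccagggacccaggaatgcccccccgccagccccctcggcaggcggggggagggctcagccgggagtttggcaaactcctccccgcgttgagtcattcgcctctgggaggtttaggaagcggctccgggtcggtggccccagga
LAMB1: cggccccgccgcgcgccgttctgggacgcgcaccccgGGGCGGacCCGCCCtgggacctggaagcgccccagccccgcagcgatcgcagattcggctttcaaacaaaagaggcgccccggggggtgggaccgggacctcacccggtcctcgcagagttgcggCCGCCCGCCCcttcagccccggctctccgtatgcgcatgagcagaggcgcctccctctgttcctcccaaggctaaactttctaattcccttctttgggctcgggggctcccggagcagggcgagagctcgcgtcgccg
ITGA6: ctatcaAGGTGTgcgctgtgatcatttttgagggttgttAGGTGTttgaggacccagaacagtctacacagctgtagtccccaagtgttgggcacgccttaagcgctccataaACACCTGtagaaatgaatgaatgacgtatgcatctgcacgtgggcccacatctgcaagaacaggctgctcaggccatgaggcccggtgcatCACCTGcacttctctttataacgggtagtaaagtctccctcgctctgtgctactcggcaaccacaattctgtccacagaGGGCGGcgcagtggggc
LAMA5: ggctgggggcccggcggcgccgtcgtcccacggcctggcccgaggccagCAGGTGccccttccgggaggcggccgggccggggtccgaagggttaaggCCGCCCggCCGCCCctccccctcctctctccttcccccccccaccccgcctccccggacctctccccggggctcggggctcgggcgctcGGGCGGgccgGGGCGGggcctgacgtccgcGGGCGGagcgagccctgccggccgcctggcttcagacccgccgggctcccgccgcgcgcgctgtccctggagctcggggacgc

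The ITGA5 window held a single GC box and the LAMB1 window held 4 GC boxes. In the window shown, ITGA6 held 3 T-box words, 2 E-boxes and 1 GC box, with a T-box word and an E-box sharing letters at 1 place. The other ITGA6 window held 0 T-box words, 0 E-boxes and 3 GC boxes. LAMA5 held 1 E-box and 5 GC boxes. Windows were at hand for 26 of the 38 genes, 33 windows in all. Among these 33 the TCF/LEF word was in 0, the E-box in 8, the GC box in 19 and the T-box word in 4. Over all 35116 promoter windows the shares were 2.62%, 20.6%, 45.0% and 11.4%, in the same order. A match is a description of the letters, and the lack of one says nothing about the factor.

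A gene was tested where at least 3 libraries of a fit held a value of at least 10, which 33 of the 38 genes did in monoculture and 31 did in co-culture. ITGA8 passed in monoculture through Cry2 light alone, so it had to differ, and ITGAX passed there through Cry2 light and 1 wt dark library. In co-culture ITGAX passed through mCh light and 1 mCh dark library. ITGB7 passed in monoculture alone, averaged at most 12.9 in any group and was not called. ITGAD, ITGAL, ITGB3, ITGB6 and LAMB4 were tested in neither culture and averaged at most 10.3 in any group. The heat map of the members shows the levels in every library.

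**Figure D1:**
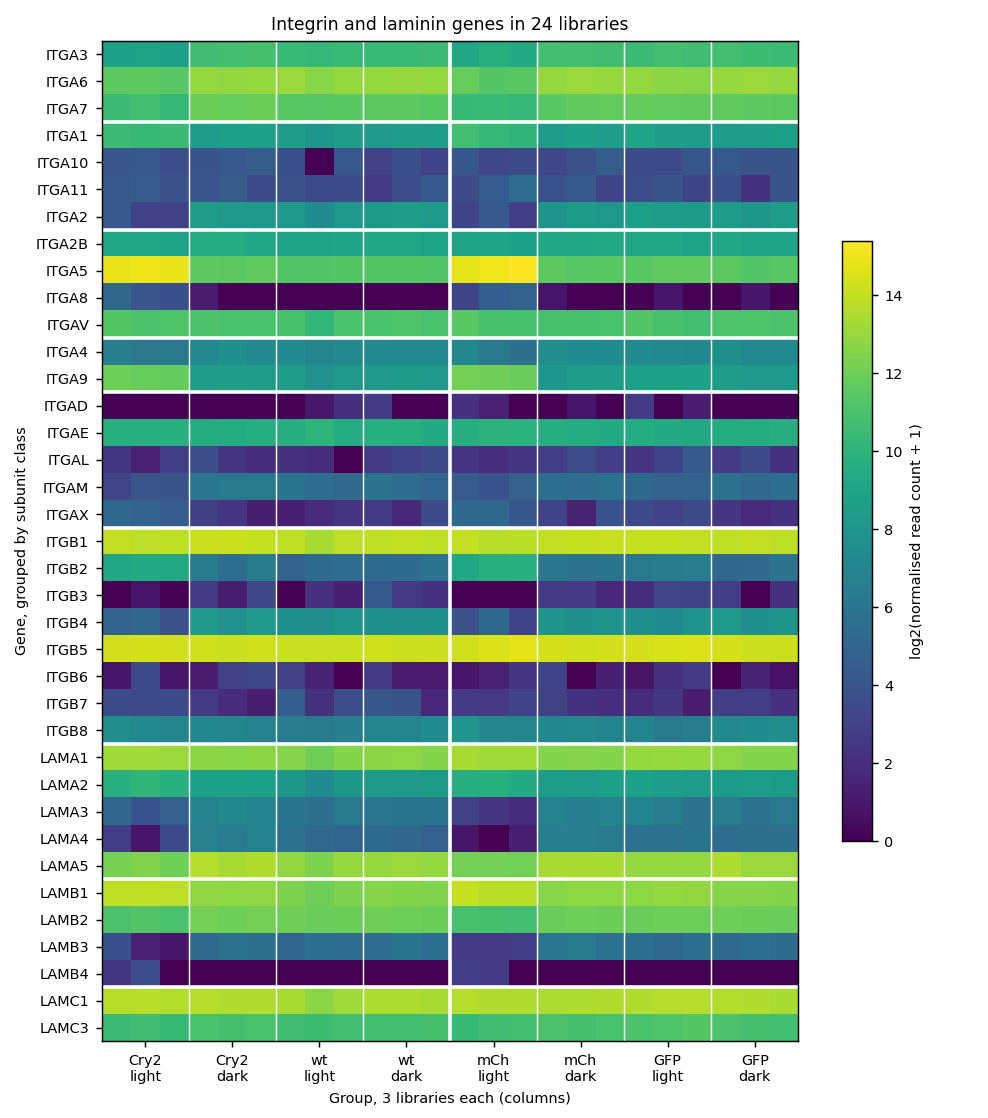
Level of 37 integrin and laminin genes (rows, grouped by subunit class) in each of the 24 libraries (columns, 3 per group), as log2 of the normalised read count plus 1. ITGA5 and ITGA9 have high values and ITGA2, ITGB4, LAMA3, LAMA4 and LAMB3 have low values in the Cry2 light and mCh light columns alone, while ITGB1, ITGB5 and LAMC1 have similar shades in all 8 groups.

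The first question was which adhesion genes change when light activates the engineered receptor. Of the 33 genes tested in monoculture, 9 were higher and 15 were lower in Cry2 light than in Cry2 dark (limma, Benjamini-Hochberg adjusted p under 0.05 over all genes). Without ITGA8 the counts were 8 higher and 15 lower of 32. Over the transcriptome 28.1% of all 19444 genes were higher and 30.4% were lower. The share called in either direction was 72.7% of the members, or 71.9% without ITGA8, and 58.4% of all genes. In co-culture 8 of 31 genes were higher and 16 were lower in mCh light than in mCh dark, against 27.2% and 28.7% of 19436 genes, or 77.4% of the members and 55.9% of all genes in either direction. Both comparisons called 23 genes, 8 higher and 15 lower in both, with 0 in opposite directions, and these comparisons share no library. That is 74.2% of the 31 members tested in both cultures, 25.8% higher and 48.4% lower, against 49.8% of 19020 genes over the transcriptome, 24.1% higher and 25.7% lower. The 8 higher members include ITGAX, which passed the filter mainly through the lit engineered groups, so its calls are no support. The groups did not overlap for 28 of 33 genes in monoculture, where the share over all genes was 65.7%, and for 25 of 31 in co-culture, where it was 58.4%. The median log2 change of the members tested was -0.21 in both cultures, against -0.01 over all genes.

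**Figure D2:**
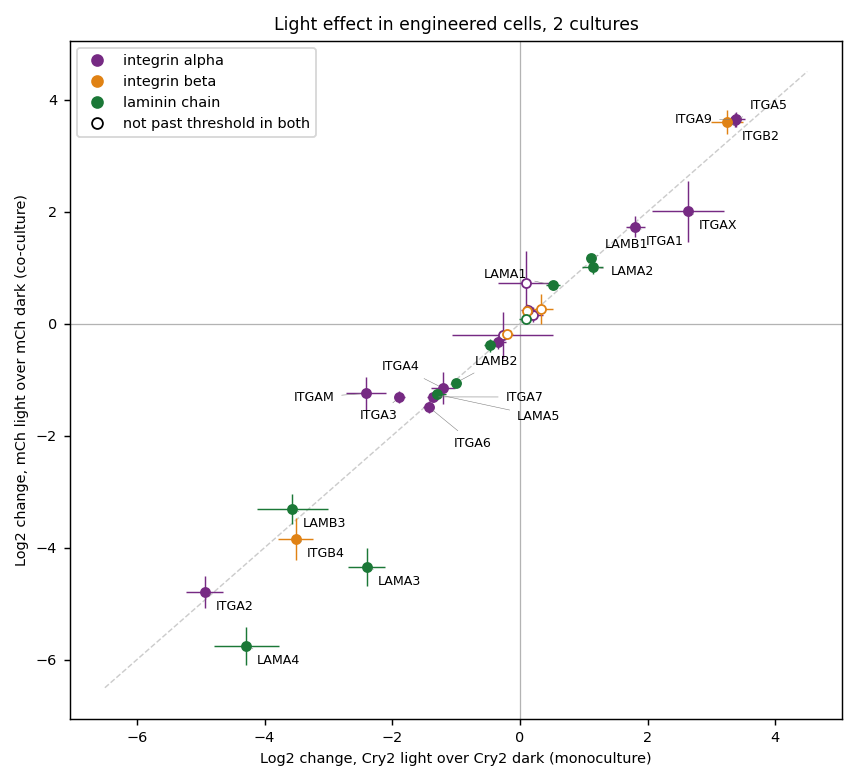
Log2 change of 30 genes tested in both cultures, Cry2 light over Cry2 dark on the x axis and mCh light over mCh dark on the y axis, with standard errors from limma; open points did not pass the threshold in both cultures and the dashed line marks equal changes. Genes called in both cultures lie in the upper right (8 genes) or lower left (14 genes) of the plot.

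Among the integrin alpha chains the fibronectin receptor chain ITGA5 carried most of the added transcript. ITGA5 had 30105, 32784 and 31405 normalised counts in Cry2 light, against 3073, 2881 and 3157 in Cry2 dark. It had 28632, 34550 and 42991 in mCh light, against 2950, 2697 and 2787 in mCh dark. The lit and dark libraries were far apart in both cultures, and the spread was wider in mCh light than in Cry2 light. ITGA5 was 10.3-fold higher in Cry2 light (log2 change 3.37 ± 0.06, SE; limma adjusted p = 2.34e-15) and 12.6-fold higher in mCh light (log2 change 3.63 ± 0.12; limma adjusted p = 1.77e-12). The gene lies on chromosome 12 from 54395261 to 54419460 on the minus strand (GRCh38, GENCODE 29).

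ITGA9, whose product pairs with beta-1 and binds tenascin and other ligands, rose too. It had 4084, 3643 and 3478 in Cry2 light, against 345, 372 and 354 in Cry2 dark, and 4562, 4257 and 3814 in mCh light, against 275, 346 and 394 in mCh dark. Every lit engineered library was above every dark one. The change was 10.5-fold in monoculture (log2 3.38 ± 0.14; limma adjusted p = 1.77e-11) and 12.4-fold in co-culture (log2 3.65 ± 0.13; limma adjusted p = 4.27e-12). An annotated antisense gene, ITGA9-AS1, shares 6.46% of the ITGA9 exon length and averaged 72.7 in Cry2 light and 74.8 in Cry2 dark. ITGA4, the other member of this alpha class, went the opposite way, with a mean of 77.2 ± 14.1 in Cry2 light and 178 ± 24.8 in Cry2 dark (SD, n = 3 each; log2 change -1.20, limma adjusted p = 4.44e-05). In mCh light 1 of the 3 ITGA4 libraries, at 146, lay far above the others at 71.2 and 51.2.

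The collagen receptor chains parted. ITGA1 averaged 1402 ± 133 in Cry2 light and 401 ± 49.6 in Cry2 dark (SD, n = 3 each), a 3.50-fold rise, and it was 3.38-fold higher in mCh light than in mCh dark (limma adjusted p = 4.07e-08 in monoculture and 1.09e-06 in co-culture). ITGA2, its neighbour on chromosome 5, had 17.2, 7.29 and 7.10 in Cry2 light, against 371, 322 and 290 in Cry2 dark. It had 7.89, 17.8 and 6.02 in mCh light, against 253, 333 and 289 in mCh dark. In both cultures the dark libraries were at least an order of magnitude above the lit ones. ITGA2 was 31.1-fold lower in Cry2 light (log2 change -4.94 ± 0.29; limma adjusted p = 8.55e-10) and 27.6-fold lower in mCh light (log2 change -4.79 ± 0.28; limma adjusted p = 1.54e-09). ITGA10 and ITGA11, the remaining collagen receptor chains, averaged between 8.93 and 25.6 in every group and did not pass the test in either culture.

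All 3 laminin receptor alpha chains fell in both cultures. ITGA6, the main laminin receptor chain of these cells, averaged 2936 ± 176 in Cry2 light and 7888 ± 206 in Cry2 dark (SD, n = 3 each), a log2 change of -1.43 (limma adjusted p = 1.2e-09), and 2976 ± 528 in mCh light and 8272 ± 339 in mCh dark, a log2 change of -1.49 (limma adjusted p = 1.71e-08). ITGA3 fell 3.71-fold in Cry2 light, with 462 ± 25.1 against 1715 ± 101 in Cry2 dark, and 2.47-fold in mCh light, with 687 ± 101 against 1698 ± 70.2 in mCh dark. ITGA7 was 2.54-fold lower in Cry2 light and 2.48-fold lower in mCh light. No library of a lit engineered group reached its dark group for any of the 3 genes.

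Of the other alpha chains, ITGA2B, known from platelets, was lower by 0.34 and 0.33 on the log2 scale in Cry2 light and mCh light, with limma adjusted p-values of 0.0208 and 0.0235. Those calls were lost without any one of Cry2 light 3, Cry2 dark 1 or Cry2 dark 2 in monoculture (limma adjusted p up to 0.112) and of mCh light c, mCh dark b or mCh dark c in co-culture (limma adjusted p up to 0.109). ITGAV, the vitronectin receptor chain, was not called, with 2358 ± 216 in Cry2 light and 2047 ± 84.7 in Cry2 dark (95% interval of the log2 difference -0.13 to 0.54). ITGA8 had 33.5, 15.4 and 12.4 in Cry2 light, against 1.31, 0 and 0 in Cry2 dark, the last from 1 read in all. The ratio of reads, scaled for depth, was 43.3 with an exact conditional 95% interval of 7.53 to 1735 that covers counting error only.

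Per kilobase of merged exons, the alpha chain transcripts of engineered cells changed in make-up and in sum. ITGA5 made up 69.9% ± 1.85 of the summed alpha chain level in Cry2 light and 13.3% ± 0.396 in Cry2 dark (SD, n = 3 each), and 71.5% ± 6.16 in mCh light and 12.8% ± 0.961 in mCh dark. ITGA6 made up 7.57% in Cry2 light and 40.2% in Cry2 dark, and 7.15% in mCh light and 43.6% in mCh dark. The summed alpha chain level per kilobase was 5935 ± 179 in Cry2 light and 3005 ± 76.8 in Cry2 dark. Between ITGA5 and ITGA6 the ratio of levels per kilobase was 8.56, 9.30 and 9.91 in Cry2 light, against 0.327, 0.322 and 0.347 in Cry2 dark. In mCh light that ratio ran from 6.90 to 13.4, against 0.272 to 0.322 in mCh dark, so the order of the pair was turned in all 6 lit engineered libraries.

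The most abundant beta chains per kilobase, ITGB1 and ITGB5, had log2 changes between -0.21 and 0.23. ITGB1, the shared partner of most alpha chains named above, had 16183, 14890 and 15783 in Cry2 light, against 18484, 18507 and 17142 in Cry2 dark. It had 16338, 13731 and 14457 in mCh light, against 16382, 16728 and 17513 in mCh dark. In both cultures the lit libraries lay below the dark ones by a small margin. The log2 change of -0.21 in monoculture did not pass (limma adjusted p = 0.111), and that of -0.19 in co-culture did (limma adjusted p = 0.0448), a call that 12 of 20 alternatives lost. Those were the edgeR fit (adjusted p = 0.0596), testing without a filter (limma adjusted p = 0.0693), and the leaving out of mCh light b, mCh light c, any mCh dark or GFP dark library, GFP light b or GFP light c (limma adjusted p up to 0.182). A processed pseudogene, ITGB1P1, averaged 51.6 in Cry2 light and 80.5 in Cry2 dark, small beside ITGB1. ITGB5, the partner of ITGAV, averaged 20844 ± 557 in Cry2 light and 19407 ± 466 in Cry2 dark and was not called (95% interval of the log2 difference 0.00 to 0.21). Together ITGB1 and ITGB5 made up nearly the whole beta chain level per kilobase, with 43.7% and 54.4% in Cry2 light and 49.4% and 49.6% in Cry2 dark.

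Among the minor beta chains ITGB2 rose and ITGB4 fell. ITGB2, the leukocyte beta chain, had 592, 668 and 625 in Cry2 light, against 75.7, 46.7 and 78.9 in Cry2 dark, and 573, 805 and 888 in mCh light, against 65.1, 57.7 and 58.5 in mCh dark. All 6 lit engineered libraries were above all dark ones. The rise was 9.36-fold in Cry2 light (log2 3.24 ± 0.25; limma adjusted p = 2.13e-08) and 12.5-fold in mCh light (log2 3.60 ± 0.22; limma adjusted p = 2.39e-09). Its antisense gene ITGB2-AS1, which shares 4.46% of the ITGB2 exon length, was at 56.8 to 74.2 in Cry2 light and 2.98 to 6.53 in Cry2 dark, and with the strand setting of the counting not given in the sources used here, reads of the pair cannot be told apart over that stretch.

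Of 6 leukocyte markers 4 could be tested, and 1 was higher and 2 were lower in Cry2 light than in Cry2 dark, with the same counts in mCh light. Together the 6 summed to 376 to 412 in Cry2 light and 540 to 634 in Cry2 dark, and to 293 to 533 in mCh light and 614 to 689 in mCh dark, nearly all from CORO1A. PTPRC and CD53, which define leukocytes, had no read in mCh light and averaged 1.77 and 0.566 in Cry2 light, while CD48 averaged 21.6 in Cry2 light and 38.9 in mCh light and had no read in the other groups. CD48 thus passed the filter through the lit engineered groups alone, so its higher calls are no support. The leukocyte alpha chain ITGAX followed ITGB2, at 21.3 to 34.4 in Cry2 light against 1.49 to 6.53 in Cry2 dark. It passed the filter mainly through Cry2 light in monoculture and through mCh light in co-culture, so neither call is support. ITGAM went down, at 8.14 to 15.4 in Cry2 light against 64.0 to 74.4 in Cry2 dark (log2 change -2.41, limma adjusted p = 9.15e-06), and ITGAE, at 821 in Cry2 light and 752 in Cry2 dark, was not called.

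ITGB4, the beta chain of hemidesmosomes, the laminin-anchored junctions of epithelia, was among the genes that fell most. It had 29.0, 33.2 and 13.3 in Cry2 light, against 307, 223 and 314 in Cry2 dark, and 13.2, 34.0 and 7.52 in mCh light, against 245, 209 and 241 in mCh dark. The fall was 11.2-fold in Cry2 light (log2 change -3.51 ± 0.27; limma adjusted p = 2.23e-08) and 12.7-fold in mCh light (log2 change -3.85 ± 0.37; limma adjusted p = 3.95e-07). ITGB8, a partner of ITGAV, averaged 162 ± 28.6 in Cry2 light and 128 ± 18.3 in Cry2 dark and was not called there. Its light effect did differ from that of wild-type cells in both cultures, as given below.

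**Figure D3:**
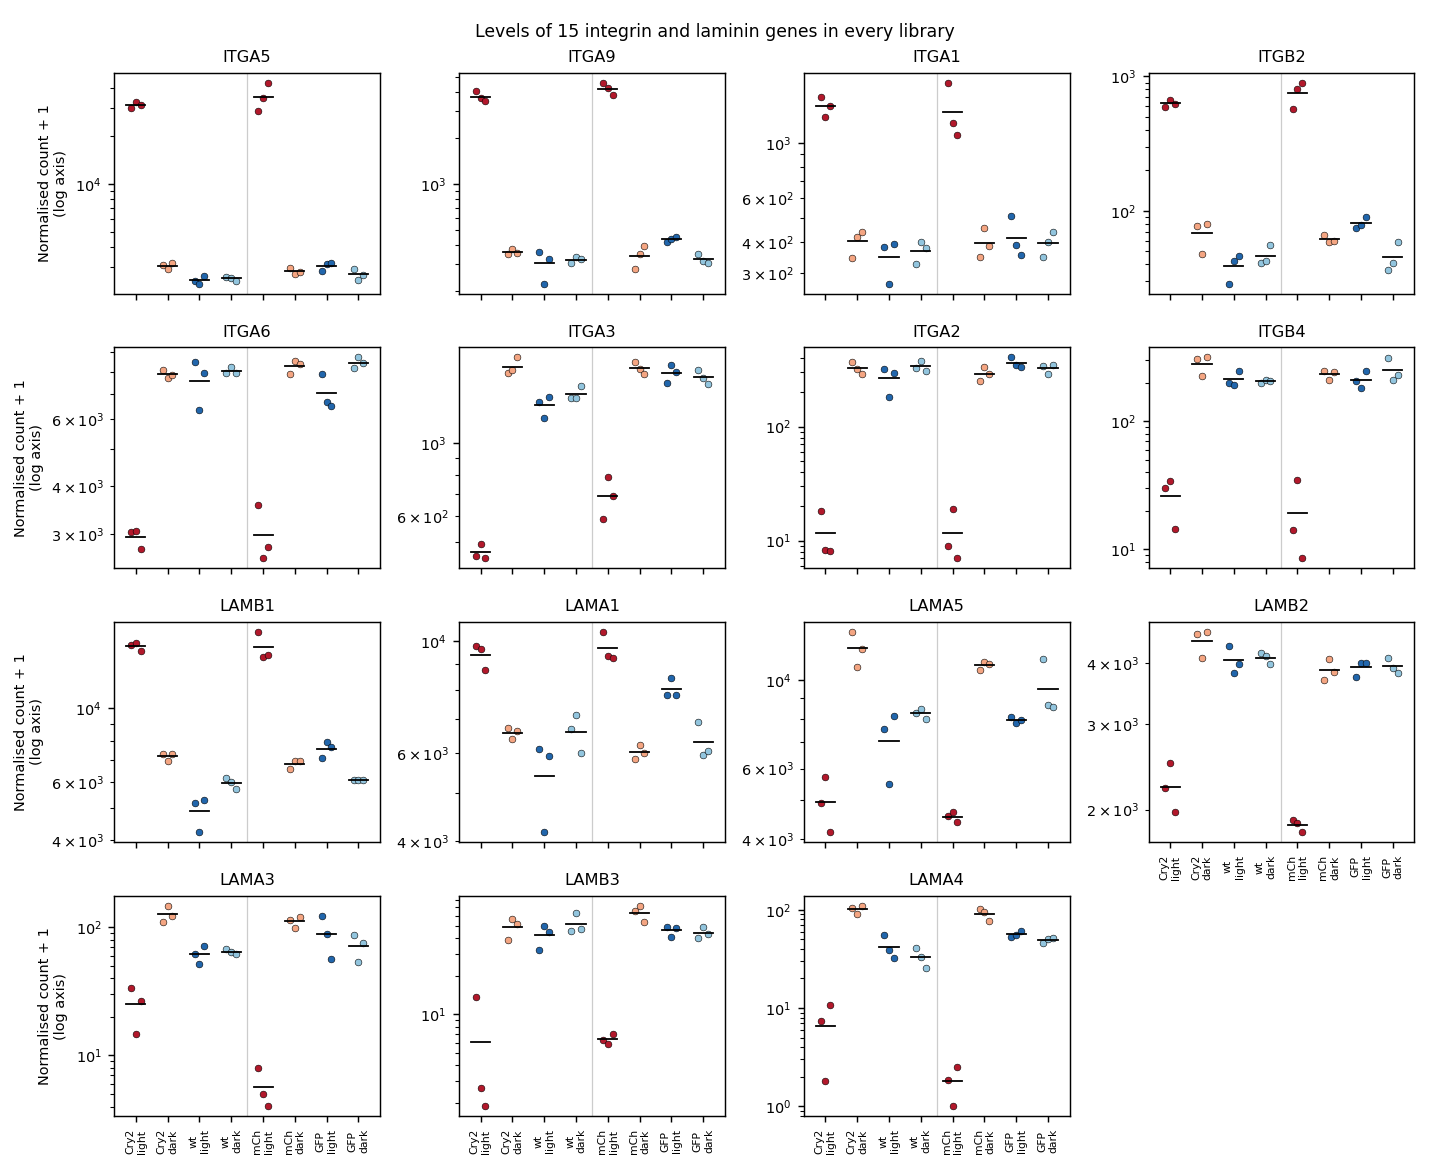
Normalised read count plus 1 on a log axis for 15 integrin and laminin genes, with 1 point per library and a bar at each group mean; the grey line parts monocultures from co-cultures. Each lit engineered library lies above (ITGA5, ITGA9, ITGA1, ITGB2, LAMB1, LAMA1) or below (the other 9 genes) its dark group, while lit and dark wild-type points sit close together in most panels.

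Among laminin genes LAMA1, LAMA2 and LAMB1 rose in both cultures, LAMA5 and LAMB2 fell, and LAMC1 was not called. LAMB1, the beta chain of most embryonic laminins, had 15596, 15782 and 14923 in Cry2 light, against 7259, 6957 and 7264 in Cry2 dark. It had 17078, 14348 and 14504 in mCh light, against 6543, 6922 and 6957 in mCh dark. The groups were clearly apart in both cultures, by 2.16-fold in monoculture (log2 1.11 ± 0.07; limma adjusted p = 4.44e-09) and 2.25-fold in co-culture (log2 1.17 ± 0.08; limma adjusted p = 6.88e-09). LAMB2, the alternative beta chain, averaged 2229 ± 260 in Cry2 light and 4441 ± 299 in Cry2 dark, a 1.99-fold fall (limma adjusted p = 4.71e-08), and fell by 1.05 on the log2 scale in mCh light. LAMB1 made up 85.3% ± 1.15 of the laminin beta level per kilobase in Cry2 light and 57.3% ± 1.00 in Cry2 dark, and 87.3% ± 0.878 in mCh light and 59.2% ± 0.837 in mCh dark (SD, n = 3 each).

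LAMA5, the alpha chain of the laminin that supports pluripotent cells, had 4915, 5730 and 4155 in Cry2 light, against 13236, 10817 and 12007 in Cry2 dark. It had 4554, 4671 and 4410 in mCh light, against 10633, 11139 and 10992 in mCh dark. Lit engineered libraries were well below dark ones, 2.44-fold in monoculture (log2 change -1.29 ± 0.13; limma adjusted p = 5.48e-07) and 2.40-fold in co-culture (log2 change -1.26 ± 0.09; limma adjusted p = 1.92e-08). LAMA1, the other embryonic alpha chain, had 9788, 9650 and 8772 in Cry2 light, against 6708, 6386 and 6645 in Cry2 dark, and 10454, 9341 and 9278 in mCh light, against 5845, 6226 and 5990 in mCh dark. It rose 1.43-fold in Cry2 light (limma adjusted p = 0.00111) and 1.61-fold in mCh light (limma adjusted p = 2.74e-06), without overlap of the groups. LAMA2, known from muscle basement membrane, was 2.21-fold higher in Cry2 light and 2.00-fold higher in mCh light.

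Per kilobase, LAMA1 made up 57.6% ± 2.63 of the laminin alpha level in Cry2 light and 31.6% ± 1.49 in Cry2 dark, and LAMA5 made up 33.4% ± 2.42 in Cry2 light and 63.9% ± 1.88 in Cry2 dark (SD, n = 3 each). The same shares in co-culture were 60.9% for LAMA1 and 31.8% for LAMA5 in mCh light, against 31.7% and 63.9% in mCh dark. The ratio of LAMA1 to LAMA5 per kilobase was between 1.52 and 2.07 in the 6 lit engineered libraries and between 0.456 and 0.532 in the 6 dark ones. Which of the pair was the more abundant per length was thus reversed in each lit engineered library.

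**Figure D4:**
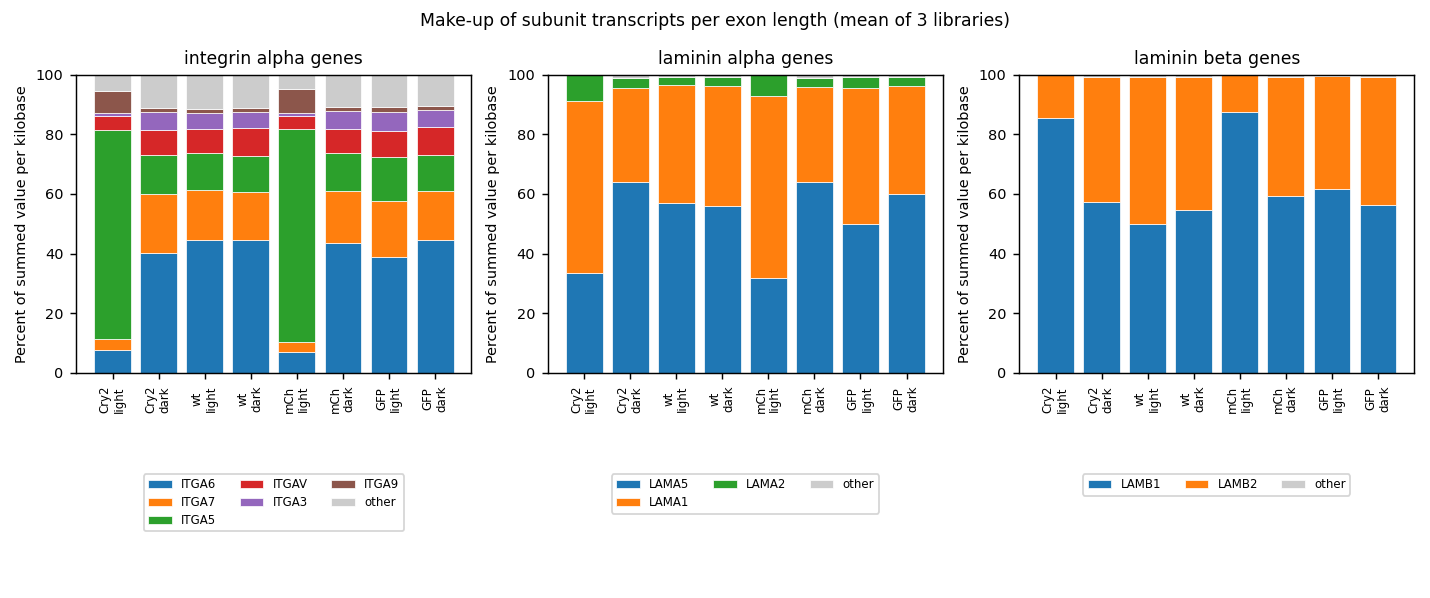
Share of each gene in the summed level per kilobase of merged exons of the integrin alpha, laminin alpha and laminin beta genes, as the mean of 3 libraries in each of the 8 groups. ITGA5, LAMA1 and LAMB1 take 69.9%, 57.6% and 85.3% in Cry2 light, against 13.3%, 31.6% and 57.3% in Cry2 dark.

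LAMA3 and LAMB3, chains of the epithelial laminin of skin, fell in both cultures. LAMA3 had 32.6, 13.8 and 25.7 in Cry2 light, against 108, 146 and 121 in Cry2 dark, and 7.01, 4.04 and 3.01 in mCh light, against 113, 97.7 and 119 in mCh dark. The log2 change was -2.40 ± 0.29 in monoculture (limma adjusted p = 3.67e-06) and -4.34 ± 0.34 in co-culture (limma adjusted p = 3.96e-08). Lit libraries were below dark ones throughout, and those of the co-culture were the lowest. LAMB3 was 9.46-fold lower in Cry2 light and 11.6-fold lower in mCh light from a dark level of 47.9 and 62.4.

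LAMA4, an alpha chain best known from vessels, nearly disappeared. It had 6.33, 0.81 and 9.76 in Cry2 light, against 104, 90.5 and 109 in Cry2 dark, a log2 change of -4.29 ± 0.51 (limma adjusted p = 3.04e-06). It had 0.877, 0 and 1.50 in mCh light, 2 reads in all, against 100, 93.0 and 76.7 in mCh dark, 314 reads in all. Scaled for depth the dark to lit ratio of reads in co-culture was 136 with an exact conditional 95% interval of 37.4 to 1129, and the fitted log2 change of -5.75 (limma adjusted p = 1.45e-09) depends on the pseudocount. LAMB4 was listed at 4.52, 11.3 and 0 in Cry2 light and at 6.14, 5.66 and 0 in mCh light, and with no read in the other 18 libraries, where a count of 0 allows up to 3 reads per library.

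LAMC1, the gamma chain of most laminins, had 13500, 13529 and 12490 in Cry2 light, against 12882, 12042 and 11915 in Cry2 dark. It had 12872, 12190 and 12187 in mCh light, against 11373, 11775 and 11855 in mCh dark. Lit and dark libraries lay close together, overlapping in monoculture. LAMC1 was not called in either culture, with a log2 difference of 0.10 (95% interval -0.15 to 0.35) in monoculture and 0.09 (-0.06 to 0.24) in co-culture. LAMC3 was lower by 0.46 on the log2 scale in Cry2 light (limma adjusted p = 0.000809) and by 0.39 in mCh light (limma adjusted p = 0.0136), the second call being lost without mCh dark a (limma adjusted p = 0.058).

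Whether growth beside wild-type cells changed the response of engineered cells was tested as the difference of the light effects, mCh minus Cry2, over all 24 libraries. Of 34 members tested, 0 were higher and 0 were lower (limma), against 0.0246% and 0.0394% of 20322 genes, 0.064% in either direction. An unadjusted p under 0.05 was seen for 4 members, namely ITGA3, ITGAM, LAMA3 and LAMA4, and DESeq2 called 1 member while edgeR called 0. LAMA3 fell by 2.40 on the log2 scale in Cry2 light and by 4.34 in mCh light. Culture type and any difference in the handling of sorted cells cannot be told apart in this contrast.

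Wild-type cells gave a check of light itself. In monoculture, 0 of the 33 members were called higher and 0 lower in wt light than in wt dark (limma), against 0.0309% and 0.0411% of all genes, or 0.072% in either direction. Without wt light 2 these counts were again 0 and 0. Of the 33, 7 had an unadjusted p under 0.05, and edgeR called 0 and DESeq2 called 2, both lower. ITGA5 averaged 2473 ± 144 in wt light and 2539 ± 75.0 in wt dark, and ITGA6 averaged 7587 ± 1117 in wt light and 8046 ± 185 in wt dark (SD, n = 3 each). Part of the wider spread in light came from wt light 2, which had the lowest level of the 3 libraries for ITGB1, ITGA6, ITGAV, LAMA1, LAMA5 and LAMC1. As a difference of light effects, Cry2 minus wt, 12 members were higher and 14 were lower of 33 (11 and 14 of 32 without ITGA8), against 22.8% and 25% of all genes, or 47.8% in either direction. The 12 include ITGB5, ITGB8 and LAMC1, which were not called in Cry2 light against Cry2 dark. Of 22 alternatives, 7 lost the call of ITGB5, 9 that of LAMC1 and 8 that of LAMC3. In co-culture, mCh minus GFP, 8 were higher and 13 lower of 31, against 19.5% and 21% of all genes, or 40.5% in either direction. Of 20 alternatives, 13 lost the call of ITGB1 and 6 that of LAMA1. ITGB8 differed by 1.01 in monoculture and 1.21 in co-culture on the log2 scale, calls that no alternative lost.

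The next question was whether wild-type cells in the lit co-culture, next to activated engineered cells, changed. Of 31 members, 3 were higher in GFP light than in GFP dark and 0 were lower (limma), against 2.39% and 2.21% of all genes, 4.6% in either direction. The groups did not overlap for 12 members, a share over all genes of 24.8%. LAMB1 had 7085, 7935 and 7630 in GFP light, against 6097, 6075 and 6057 in GFP dark. LAMA1 had 7825, 8450 and 7802 in GFP light, against 6902, 5943 and 6055 in GFP dark. ITGB2 had 72.9, 77.2 and 88.9 in GFP light, against 35.4, 39.5 and 57.2 in GFP dark. The 3 lit libraries were above the 3 dark ones for each of these genes, by 1.24-fold for LAMB1, 1.27-fold for LAMA1 and 1.81-fold for ITGB2.

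The log2 changes were 0.31 ± 0.08 for LAMB1 (limma adjusted p = 0.0351), 0.35 ± 0.08 for LAMA1 (0.0182) and 0.87 ± 0.22 for ITGB2 (0.038). These calls were close to the threshold. LAMB1 lost its call in 10 of 20 alternatives, ITGB2 in 9 and LAMA1 in 4, with directions kept, and each lost it without GFP light b (limma adjusted p = 0.159, 0.102 and 0.101, in that order of genes) and without GFP dark b (0.121, 0.14 and 0.105). LAMB1 and ITGB2 were also lost without GFP light c, GFP dark a or any mCh dark library, LAMA1 and LAMB1 without GFP dark c, and ITGB2 without GFP light a. Near the threshold, ITGA9 averaged 435 ± 16.3 in GFP light and 322 ± 23.8 in GFP dark (limma adjusted p = 0.0721), and ITGB8 averaged 93.8 ± 26.9 in GFP light and 178 ± 18.7 in GFP dark (limma adjusted p = 0.0545). ITGB8 also had a lower mean in wt light, at 86.9 ± 7.64, than in wt dark, at 141 ± 22.9, without a call (limma adjusted p = 0.203).

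Set against the light effect in wild-type monoculture, 2 members differed over all 24 libraries, both higher, against 1.41% of all genes higher, 0.886% lower and 2.3% in either direction. The difference of light effects, GFP minus wt, was 0.66 ± 0.14 on the log2 scale for LAMA1 (limma adjusted p = 0.0121) and 0.60 ± 0.11 for LAMB1 (limma adjusted p = 0.00222). Part of each difference lay in the monoculture. LAMA1 had 6096, 4169 and 5916 in wt light, against 6691, 7120 and 5996 in wt dark, and LAMB1 had 5193, 4224 and 5293 in wt light, against 6181, 5998 and 5703 in wt dark. LAMB1 was thus below its dark group in each wt light library, and LAMA1 in 2 of 3. Without wt light 2, the lowest of them, both differences kept their call.

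The share of LAMA1 in the laminin alpha level per kilobase was 45.5% ± 1.59 in GFP light and 36.1% ± 1.62 in GFP dark, and that of LAMA5 was 50.1% ± 1.28 in GFP light and 60.1% ± 2.07 in GFP dark (SD, n = 3 each). In wild-type monoculture LAMA1 made up 39.3% ± 1.20 in wt light and 40.3% ± 1.45 in wt dark. The LAMA1 to LAMA5 ratio per kilobase was 0.871, 0.973 and 0.886 in GFP light, against 0.549, 0.617 and 0.638 in GFP dark.

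Markers of other cell states also differed in the sorted wild-type cells. Of 7 streak markers 3 were called higher in GFP light than in GFP dark, TBXT, EOMES and MIXL1, and 0 were lower. TBXT was at 108 to 135 in GFP light and 1.80 to 6.20 in GFP dark, and EOMES averaged 244 in GFP light and 5.95 in GFP dark. The 7 streak markers summed to 653 to 724 in GFP light and 206 to 249 in GFP dark, with all 7 read in GFP light and HAND1 without a read in GFP dark. TBX6 was not called, at 146 in GFP light and 158 in GFP dark. Of 5 amnion and trophoblast markers 2 were higher and 2 lower, with TFAP2A at 17.8 in GFP light and no read in GFP dark, and GABRP at 84.4 in GFP light and 548 in GFP dark. TFAP2A passed the filter through GFP light alone, so it had to differ and is no support. Of 7 pluripotency markers 2 were higher, NANOG and DNMT3B, and 1 was lower, TDGF1. CER1 was the endoderm marker that was called, at 165 in GFP light and 55.7 in GFP dark. The part of these markers' cell states in the LAMA1, LAMB1 and ITGB2 changes was not tested. As a share of the mCh light level, the excess of GFP light over GFP dark was 0.411% for TBXT, 4.11% for EOMES and 0.0107% for MSGN1. The same excess was 1.01% for ITGA5, 4.72% for ITGB2, 9.62% for LAMB1 and 17.8% for LAMA1. LAMA1 and LAMB1 were already at 6300 and 6076 in GFP dark, against 9691 and 15310 in mCh light. TBXT was at 4.57 in GFP dark against 27766 in mCh light, so these shares are not on 1 scale as a measure of carry-over. Reads of the fusion were at 358 to 422 in GFP light and 349 to 398 in GFP dark. These shares differ between genes, and the part of carried-over engineered cells in the LAMA1, LAMB1 and ITGB2 changes was not tested further. Beside ITGB2, the 6 leukocyte markers summed to 653 to 753 in GFP light and 486 to 597 in GFP dark, nearly all from CORO1A. PTPRC and CD48 had no read in GFP light, and the part of such cells was not tested.

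**Figure D5:**
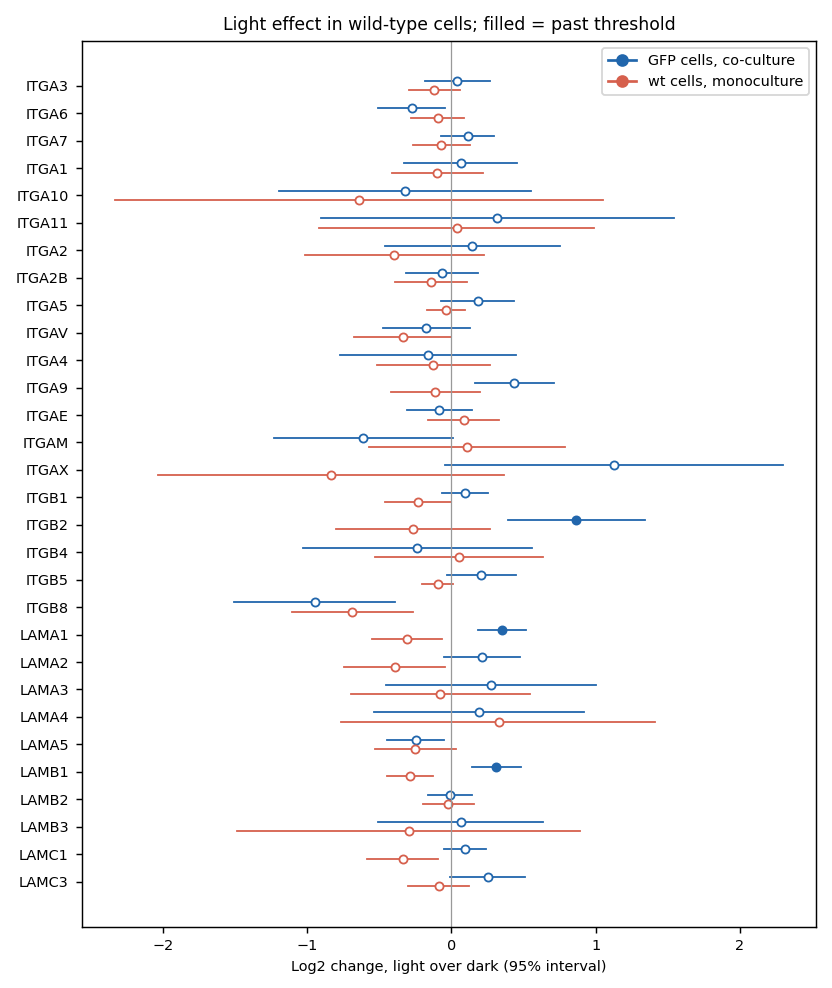
Log2 change, light over dark, with its 95% interval from limma for 30 members tested in both cultures, in GFP cells of the co-culture (blue, upper) and wt cells of the monoculture (red, lower); filled points passed an adjusted p of 0.05. The filled points are ITGB2, LAMA1 and LAMB1 in GFP cells, at 0.87, 0.35 and 0.31, and none is filled for wt cells.

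In the dark, engineered and wild-type cells were compared. By the labels the lines differ in the fusion, the fluorescent reporter and the resistance gene, whose parts cannot be told apart. Nor can any other difference between the separate lines, and whether the engineered line is 1 clone is not stated. In monoculture 3 of 33 members were higher and 0 were lower in Cry2 dark than in wt dark (limma), against 2.27% and 1.33% of all genes, 3.6% in either direction. The groups did not overlap for 16 members, a share over all genes of 27.4%. LAMA5 had 13236, 10817 and 12007 in Cry2 dark, against 8287, 8475 and 8008 in wt dark (log2 change 0.54 ± 0.13; limma adjusted p = 0.0356). ITGA7 had 3842, 3573 and 3881 in Cry2 dark, against 2885, 2944 and 2761 in wt dark (log2 change 0.40 ± 0.09; limma adjusted p = 0.0276). ITGA5 had 3073, 2881 and 3157 in Cry2 dark, against 2601, 2560 and 2455 in wt dark (log2 change 0.26 ± 0.06; limma adjusted p = 0.0303). Groups did not overlap for any of the 3 genes.

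The count fell to 0 without Cry2 dark 3 and wt dark 1, the libraries of low RNA integrity and low GC content, with log2 changes of 0.54, 0.38 and 0.25 for LAMA5, ITGA7 and ITGA5 and limma adjusted p-values of 0.201, 0.197 and 0.193. Of 22 alternatives, 8 lost the call of LAMA5, 7 that of ITGA7 and 7 that of ITGA5. Over all genes, leaving out any 1 of the dark libraries gave 327 to 411 calls, against 700 with all of them. With the replicate number as a block the call of LAMA5 and of ITGA5 was lost, both at a limma adjusted p of 0.0511. In co-culture 0 members were higher and 0 were lower in mCh dark than in GFP dark (limma), against 0.453% and 0.345% of all genes, or 0.797% in either direction. Of the 31, 3 had an unadjusted p under 0.05 and DESeq2 called 1, while edgeR called 0. LAMA5 averaged 10921 ± 260 in mCh dark and 9514 ± 1573 in GFP dark (SD, n = 3 each), with 1 GFP dark library at 11329 above all 3 mCh dark ones. The wider lists described below were also compared in monoculture, Cry2 dark against wt dark. Of 31 adhesion machinery genes 2 were higher (6.45%) and 1 lower (3.23%). Of 29 other ligand and basement membrane genes 3 were higher (10.3%) and 0 lower. Of the 18 genes of the last list 2 were higher (11.1%) and 0 lower, against 2.27% and 1.33% of all genes. CCN2, SPP1 and CCN1 were higher by 0.71, 0.64 and 0.58 on the log2 scale. CD44, BCAM, PARVA and PXN were higher by 0.42, 0.345, 0.32 and 0.23, and TNS2 was lower by 0.63. These calls were not followed under the alternatives.

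Genes that work with integrins inside the cell changed in both directions under light. Of 31 genes of the adhesion machinery, 15 were higher and 11 were lower in Cry2 light than in Cry2 dark, and 16 were higher and 8 lower in mCh light than in mCh dark (limma). These are 48.4% and 35.5% for Cry2 light and 51.6% and 25.8% for mCh light, against 28.1% and 30.4% and against 27.2% and 28.7% over all genes. TNS2, a tensin that links beta chains to actin, averaged 2579 in Cry2 light and 199 in Cry2 dark, a log2 change of 3.69. KANK2, PARVB and TGFB1I1, all adaptors at focal adhesions, were 2.46-fold, 2.42-fold and 3.05-fold higher in Cry2 light. FERMT1, a kindlin that activates integrins in epithelia, was 3.20-fold lower, and VCL, the actin-binding vinculin, was 2.27-fold lower, at 15831 in Cry2 light and 35887 in Cry2 dark. In GFP light against GFP dark, TNS2, KANK2 and TLN2 were higher (9.68%) and 0 of the 31 were lower. The shares over all genes were 2.39% higher and 2.21% lower.

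Other integrin ligands and basement membrane genes also moved in both directions. Of 29 tested, 13 were higher and 11 lower in Cry2 light, or 44.8% and 37.9%, and of 28 tested, 14 were higher and 11 lower in mCh light, or 50% and 39.3%. The shares over all genes were 28.1% and 30.4% in monoculture and 27.2% and 28.7% in co-culture. FN1, fibronectin itself and the ligand of the ITGA5 pair, averaged 68178 in Cry2 light and 8294 in Cry2 dark, and 52759 in mCh light and 6631 in mCh dark, log2 changes of 3.04 and 2.99. FREM1, FBN1 and NID2, matrix and basement membrane proteins, were 9.63-fold, 5.86-fold and 5.85-fold higher in Cry2 light. CCN2 and CCN1, secreted proteins that bind integrins, were 21.6-fold and 8.33-fold lower, and SPP1, or osteopontin, was 7.16-fold lower. FN1 was also higher in GFP light, at 9542 against 6246 in GFP dark (log2 change 0.61, limma adjusted p = 0.00058), together with TNC and FREM1, while ICAM1 and MFGE8 were lower. These are 10.7% higher and 7.14% lower of the 28 tested, against 2.39% and 2.21% of all genes.

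The last list held 18 genes, all tested. It comprised surface proteins other than integrins, among them laminin receptors, and the enzymes that build the laminin-binding glycan of dystroglycan. In Cry2 light 9 were higher and 5 lower, and in mCh light 8 were higher and 5 lower. These are 50% and 27.8% for Cry2 light and 44.4% and 27.8% for mCh light. The shares of all genes were 28.1% and 30.4% in monoculture and 27.2% and 28.7% in co-culture. Of the 8 that are surface proteins rather than enzymes, 4 were higher (CD44, CD151, SDC1 and SDC2), 3 were lower (DAG1, BCAM and SDC4) and 1, SDC3, was not called, in both cultures. DAG1, dystroglycan, averaged 3810 in Cry2 light and 14643 in Cry2 dark (log2 change -1.94), and BCAM, the Lutheran glycoprotein that binds LAMA5 laminins, averaged 773 in Cry2 light and 4867 in Cry2 dark (log2 change -2.66). LARGE2, which extends the dystroglycan glycan, was 21.9-fold lower, whereas POMGNT1, an earlier enzyme of that route, was 2.29-fold higher. CD44, a hyaluronan receptor, was 5.56-fold higher in Cry2 light, at 2189 against 394 in Cry2 dark. In GFP light 0 of the 18 were higher and 2 were lower (11.1%), SDC2 and LARGE2, against 2.39% and 2.21% of all genes.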

How the data were processed

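The authors' deposited gene table gives, per the file headers, a normalised expression signal for each feature and library, that is, a read count divided by a library factor. The authors' deposited sample table gives reads as a count, GC content as a percent and RNA integrity as a score. Every value is a whole number of reads times 1 factor per library (100.0% whole within 0.01), so reads could be recovered. Per the submitters' processing notes, FastQC, cutadapt, Bowtie2, STAR, HTSeq and DESeq were used, without versions. The build in those notes is GRCh38, whereas the authors' sample table says hg19. The conflict was not settled, and coordinates and exon lengths printed come from GENCODE 29 on GRCh38, matched by Ensembl identifier.

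The main test was limma 3.58.1 in R 4.3.3 (trended) on log2(value + 1), so a log2 change understates that of low genes. The fit covered 12 monoculture libraries (19444 genes), 12 co-culture libraries (19436) or all 24 (20322), for genes with at least 10 in at least 3 libraries, without the 4 construct features. P-values were Benjamini-Hochberg adjusted over all genes, with a threshold of 0.05. Fold changes are ratios of group means. Levels per kilobase use merged exons. Alternatives were edgeR 4.0.16 and DESeq2 1.42.0 on recovered reads, other pseudocounts, filters and scaling, the replicate block, left-out libraries and, chosen after seeing the data, reads thinned to equal depth. The scripts were tested on simulated data.

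Co-culture columns name the group alone, through the authors' sample table, and were lettered a to c in column order, so their quality values were not used. Libraries of 1 group differed by 4.198 to 71.09 in chi-square per degree of freedom over 24 pairs, so none was counted as a duplicate. Values in every library are given for members called in both engineered light comparisons with a log2 change of at least 2 and a mean of at least 50, for ITGB1, LAMA5, LAMB1 and LAMC1, and for members called in wild-type light, in the dark or between cultures. ITGA8, LAMB4, ITGAX and ITGAM were named beyond that rule after their values were seen. The members, the lists and the motifs were chosen with earlier results of these data known. The values of 1 member are not reported here, though it is in the counts. Intervals on read ratios cover counting error only.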

Additional observations from a re-analysis of the deposited data

Results flagged for a closer look

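Light effects differed between engineered and wild-type cells for 26 of 33 members in monoculture and 21 of 31 in co-culture, tested as a difference of light effects in limma over all genes. Without ITGA8 the monoculture count was 25 of 32. The share over all genes was 47.8% in monoculture and 40.5% in co-culture.

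Between the wild-type cells of the lit co-culture and those of the monoculture, the light effect differed for LAMA1 by 0.66 on the log2 scale (limma adjusted p = 0.0121) and for LAMB1 by 0.60 (limma adjusted p = 0.00222), GFP minus wt. LAMA1 was higher in GFP light than in GFP dark in 3 of 3 libraries, and LAMB1 likewise. Of 7 streak markers 3 were higher in GFP light than in GFP dark too, and the part of carried-over engineered cells in these differences was not tested.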

How the results depend on the processing

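Of 2176 values of called members under 34 alternative settings, 2068 kept their direction and their side of the threshold, 108 kept the direction alone and 0 reversed. The counts of the engineered light comparisons moved little when 1 library was left out, at 8 to 12 higher and 14 to 16 lower for Cry2 light, and 8 to 10 higher and 14 to 16 lower for mCh light. Without wt dark 1 and Cry2 dark 3 the Cry2 light counts were 9 and 15.

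Small counts near the threshold moved. In wt light against wt dark, DESeq2 called 2 members lower. Members higher in Cry2 dark than in wt dark numbered 5 with edgeR, 7 with DESeq2, 0 without the libraries of low GC content and low RNA integrity, and 0 to 7 when 1 library was left out. The count was 7 without wt light 2, which enters through the shared estimate of spread. Over all genes that comparison called 700, against 267 without those libraries of low GC content and low RNA integrity and 1728 without wt light 2. Without any 1 of the dark libraries it called 327 to 411. Members higher in GFP light numbered 1 without a filter, 1 with equal totals and 0 to 4 with 1 library left out, being 0 without GFP light b. Members lower in GFP light numbered 1 with a pseudocount of 5, with a minimum of 50, with DESeq2 and with reads thinned to equal depth, and 0 to 2 with 1 library left out. DESeq2 called 1 member higher in mCh dark than in GFP dark, and 1 higher in mCh minus Cry2, where leaving out 1 library gave 0 to 1 in either direction. LAMA1 and LAMB1 kept their call in GFP minus wt under all 32 alternatives. The cause of these movements was not tested.

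Monoculture replicates share numbers, but their deviations from the group means correlated by -0.05 to 0.05 only, so the numbers were not taken as pairs. With the replicate block 1 member was higher in Cry2 dark than in wt dark, and no other count changed by more than 1.5 times. No paired analysis was run for the co-cultures because their columns carry no replicate numbers. Libraries of mCh and GFP cells may stem from the same mixed cultures, and the fits treated them as independent. Comparisons of mCh with GFP cells thus ignore any such pairing.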
